A study of Mus musculus with 8 samples.

Results

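The genes described here are 42 members of the protein-folding machinery of the endoplasmic reticulum (ER) and of the unfolded protein response, taken from the 56077 genes and loci of a count table of mouse liver RNA. They were chosen by symbol, by what their products do, and fall into 5 roles: 5 sensors and transcription factors, 11 chaperones and their partners, 8 folding enzymes, 10 genes of ER-associated degradation, and 8 genes of protein translocation into the ER. All 42 passed the filter on low counts and were among the 14261 genes tested.

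RNA sequencing was done on livers of 4 wild-type mice and 4 mice whose genotype is given as Eif2a flox/+, a heterozygous floxed allele of the translation initiation factor eIF2α (eIF2α flox/+ in the sample titles). All were lean C57BL/6 mice of 6 months that had free access to food and were killed in the fed state in the early morning. The labels name no recombinase or promoter that would drive deletion of the floxed allele, and they do not say which mice shared a litter. The count table names its columns W32, W33, W76, W90 (wild type) and H11, H12, H15, H75 (heterozygous), and values in every library are given in that order.

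Liver cells secrete large amounts of plasma protein, which fold and receive their sugars and disulfide bonds inside the ER. When unfolded protein accumulates there, the membrane sensors IRE1 (gene Ern1), ATF6 and PERK (gene Eif2ak3) are activated. IRE1 splices the messenger RNA of the transcription factor XBP1, ATF6 is cleaved to release a transcription factor, and PERK phosphorylates eIF2α, which lowers translation in general. XBP1 and ATF6 are known to increase transcription of ER chaperones, folding enzymes, and components that send misfolded protein to the proteasome.

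Eif2s1, which encodes eIF2α, was measured at 28.4, 28.8, 32.8 and 30.1 counts per 1000000 library counts (CPM) in wild type and at 20.5, 22.3, 20.8 and 25.1 CPM in heterozygotes. The groups did not overlap, with a mean in heterozygotes of 73.8% of that in wild type (log2 fold change -0.44 ± 0.095, SE; exact two-sided permutation p = 0.0286, the smallest that 4 against 4 allows; edgeR quasi-likelihood adjusted p = 0.315). Library totals ran from 22178028 to 28564400 estimated counts, and CPM was taken over totals scaled by TMM, which corrects for differences in library composition. Library W76 gave the lowest sum of 10 hepatocyte markers (81351 CPM), and the sums of the wild-type libraries (up to 108309 CPM) enclosed those of the heterozygous libraries (94959 to 102512 CPM). Most of each sum came from Alb (58999 to 82290 CPM). The median log2 level of the 10 markers relative to the wild-type mean was -0.058 to 0.041 in wild-type libraries. In the heterozygous libraries it was 0.18, 0.078, -0.043 and 0.32, with H15 alone inside the wild-type range.

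The ER folding genes lay higher on average in heterozygotes, in H12 and H75 above all, and none of them passed the test against the spread between mice. The mean was higher in heterozygotes for 39 of the 42 genes, against 51.1% of all tested genes, and for 34 of 42 when only library totals were used for scaling, under which Atf6, Dnajc10, Edem1, Edem3 and Sel1l turned lower. The median log2 fold change was 0.28 over the 42 genes and 0.01 over all tested genes, and scaling by library totals alone moved them to 0.18 and -0.08. The median of the 42 was 0.13 without H12, 0.20 without H75 and 0.37 without H15. With edgeR's quasi-likelihood test and Benjamini-Hochberg adjustment over all genes, 0 of the 42 passed an adjusted p under 0.05 (lowest 0.390), where 0% of all tested genes passed. At an unadjusted p under 0.05, 5 members (11.9%) were higher and 0 lower (Xbp1, Os9, Pdia5, Sec61b and Ppib), against 4.9% of all tested genes higher. DESeq2 also called 0 of the 42 (1.04% of all genes it tested were called), with 7 members higher at an unadjusted p under 0.05 against 5.12% of all genes. Limma-voom called 0, with 3 members higher at an unadjusted p under 0.05 against 4.35% of all genes. In the authors' deposited table, 0 of the 42 had an adjusted p under 0.05, and the lowest was 0.0875, for Xbp1.

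**Figure D1:**
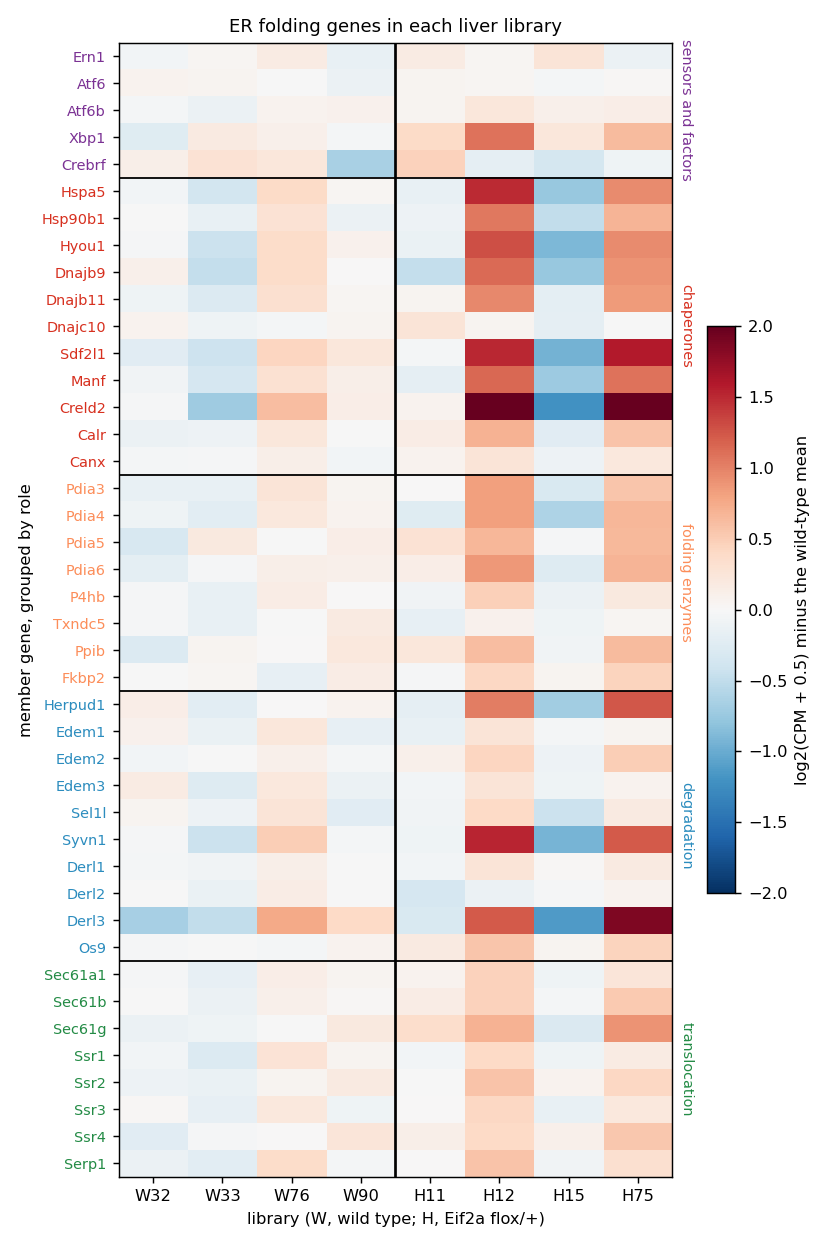
Each cell gives the log2(CPM + 0.5) of 1 of the 42 genes (rows, ordered by role) in 1 library (columns, 4 wild type then 4 heterozygous) minus the wild-type mean of that gene, with colours that saturate at 2 log2 units either way. H12 and H75 are above the wild-type mean for most genes, H15 is below it for all 11 chaperones, and H11 is close to it.

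The 4 heterozygous libraries did not move together. H12 lay above every wild-type library for 36 of the 42 genes, where it did so for 28.6% of all tested genes. H75 did so for 30 of the 42 (29.1% of all tested genes), and H12 and H75 were both above every wild-type library for 30 of the 42 (18.4% of all tested genes). H15 went the other way: it lay below every wild-type library for 19 of the 42 (20.1% of all tested genes) and above for 3 (20.5%). H11 was above for 9 of the 42, a share like that over all tested genes (20.8%), and below for 3 (21.2% of all tested genes). All 4 heterozygous libraries exceeded all wild-type libraries for 1 gene of the 42, Xbp1 (2.38%), against 2.06% of all tested genes.

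Together the 42 genes took 0.766, 0.691, 0.864 and 0.775% of all counts in the wild-type libraries. In the heterozygous libraries they took 0.744, 1.21, 0.645 and 1.02%. The shares of H12 and H75 were the highest of the 8, that of H15 was the lowest, and the groups overlapped.

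Among the sensors and their transcription factors, only Xbp1 separated the groups. Xbp1 encodes the transcription factor whose message IRE1 splices. It was at 106, 143, 135 and 123 CPM in wild type and at 165, 269, 148 and 197 CPM in heterozygotes. Every heterozygous library exceeded every wild-type library, H12 by most and H15 by least. The log2 fold change was 0.62 ± 0.18 (SE), with an edgeR adjusted p of 0.390, a DESeq2 adjusted p of 0.0862, and values over the alternative settings from 0.42 to 0.74. Reads were counted per gene, so the spliced and unspliced forms of Xbp1 cannot be told apart. Xbp1 lies at chr11:5520659-5525893 on the forward strand of GRCm38 (GENCODE annotation).

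Ern1, the sensor that splices Xbp1, was at 73.8, 78.8, 86.3 and 68.7 CPM in wild type and 85.7, 79.0, 91.5 and 70.6 CPM in heterozygotes. Atf6, the sensor cleaved in the Golgi, was at 70.4, 69.6, 66.4 and 61.8 CPM against 69.7, 68.5, 65.5 and 68.1 CPM. The groups overlapped for both genes, and the log2 fold changes were 0.09 ± 0.11 for Ern1 and 0.02 ± 0.08 for Atf6 (SE). Atf6b, a relative of ATF6, was at 17.9, 16.8, 19.4 and 19.5 CPM in wild type and 19.2, 21.5, 19.8 and 20.3 CPM in heterozygotes, with H11 alone inside the wild-type range (log2 fold change 0.13 ± 0.09). Crebrf, a regulator of CREB3-family factors, was at 23.5, 26.4, 25.2 and 13.5 CPM against 29.8, 19.0, 16.7 and 20.1 CPM. Its lowest library was a wild-type one, W90, and its highest was H11. The log2 fold change was -0.05 ± 0.23. The edgeR adjusted p-values of these 4 genes ran from 0.668 to 0.963.

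**Figure D2:**
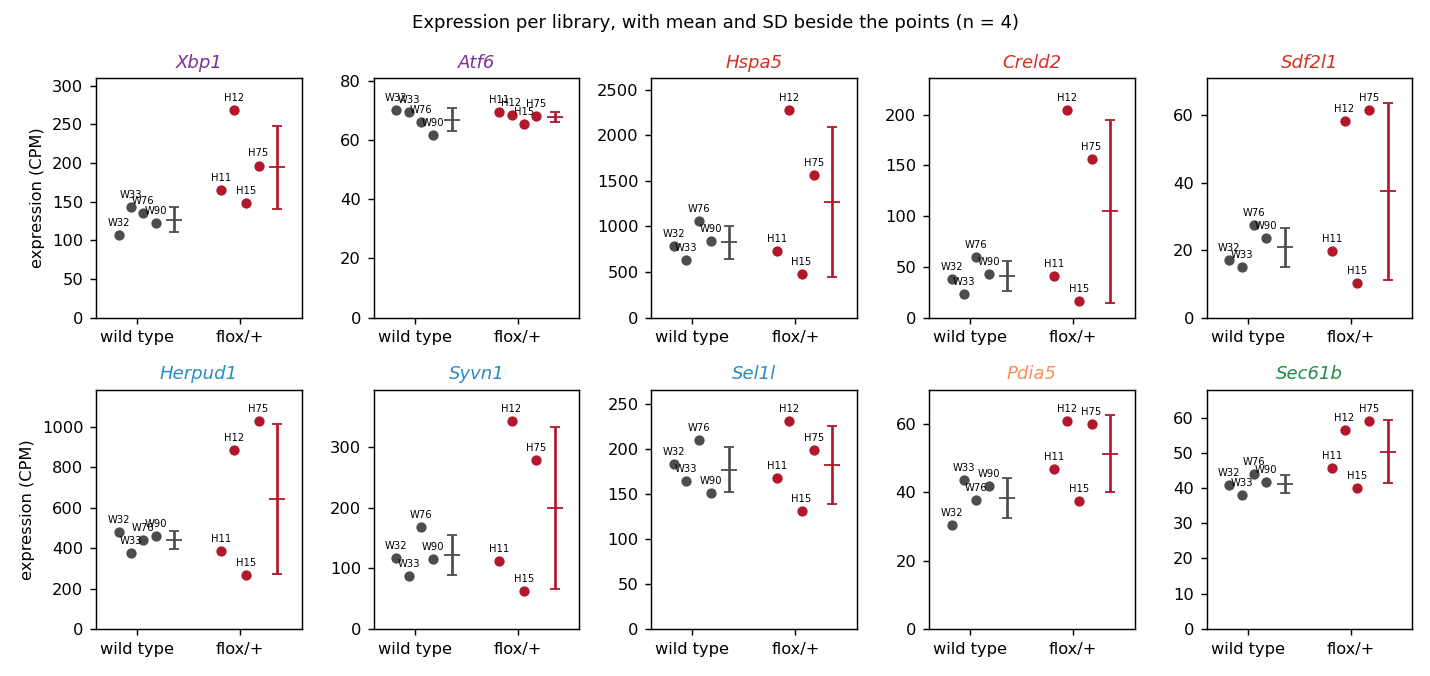
CPM of 10 of the genes, 1 panel each, with 1 point per library (4 wild type, 4 heterozygous) and the group mean ± SD. For Xbp1 the groups do not overlap, and for Hspa5, Creld2, Sdf2l1, Herpud1 and Syvn1 H12 and H75 sit above the wild-type points and H15 below them.

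The chaperones carried the widest differences between libraries. All 11 had a higher mean in heterozygotes, with a median log2 fold change of 0.49, and 0 of 11 had an unadjusted p under 0.05. H12 and H75 each lay above every wild-type library for 10 of 11, and H15 below every wild-type library for 10 of 11. Several of these genes carry, just before their start, the ER stress response element (ERSE), a site known to be bound by ATF6 and XBP1 with the factor NF-Y. The element was searched, on both strands, as CCAAT, 9 bases of any kind and CCACG, in windows of 250 bases before to 50 bases after each RefSeq gene start on GRCm38.p6. A shorter form, ERSE-II, was searched as ATTGG, 1 base and CCACG. The sequences below show an ERSE, or for Herpud1 an ERSE-II, in 8 of the genes described here. These include genes whose libraries differed widely (Derl3, Creld2, Syvn1, Hspa5) and Canx, whose libraries differed little. Capitals mark the element with the bases inside it, and each is written 5′ to 3′ in the direction of the element.
Hspa5: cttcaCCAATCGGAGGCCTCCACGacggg
Hsp90b1: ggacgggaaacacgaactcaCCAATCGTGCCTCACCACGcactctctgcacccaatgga
Creld2: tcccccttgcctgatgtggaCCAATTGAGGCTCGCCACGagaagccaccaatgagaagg
Calr: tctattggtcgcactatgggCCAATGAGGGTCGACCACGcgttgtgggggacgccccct
Canx: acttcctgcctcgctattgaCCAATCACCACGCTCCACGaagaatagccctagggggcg
Syvn1: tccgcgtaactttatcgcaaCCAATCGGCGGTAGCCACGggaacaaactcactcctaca
Derl3: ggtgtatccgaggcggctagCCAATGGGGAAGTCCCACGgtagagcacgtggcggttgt
Herpud1: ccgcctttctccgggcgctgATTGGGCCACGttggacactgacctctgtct
These stretches lie at chr2:34772020-34772048 (forward strand) for Hspa5, chr10:86705513-86705571 (forward) for Hsp90b1 and chr15:88819500-88819558 (reverse) for Creld2. They lie at chr8:84847055-84847113 (forward) for Calr, chr11:50325780-50325838 (reverse) for Canx and chr19:6046512-6046570 (forward) for Syvn1, and at chr10:75893222-75893280 (reverse) for Derl3 and chr8:94386357-94386407 (forward) for Herpud1.

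A window was found for 36 of the 42 genes, and 8 of these (22.2%) held an ERSE: Calr, Canx, Creld2, Derl3, Hsp90b1, Hspa5, Pdia6 and Syvn1. Of all 27025 genes with a window, 37 (0.137%) held one. ERSE-II was found for Herpud1 and Dnajb11, and for 12 of all genes with a window (0.0444%). The letters CCACG alone were found for 29 of the 36 (80.6%) and for 35.5% of all genes with a window. Atf6, Derl1, Hyou1, Manf, Sec61a1 and Ssr2 had no entry in the table. The 10 genes with an ERSE or ERSE-II had a median log2 fold change of 0.52 (0.12 to 1.35), and their highest heterozygous library was a median of 3.38 times the lowest. For the 26 genes with a window and neither element, these medians were 0.22 and 1.49. Some of the 26 also spanned widely in heterozygotes, such as Sdf2l1 (6.02-fold) and Dnajb9 (3.76-fold), while Canx, with an ERSE, spanned 1.29-fold. Chaperones are common among the 10, so element and role were not separated. A match of letters is a description and was not tested as a binding site.

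Hspa5 encodes BiP, the ER's main Hsp70 chaperone, and was at 781, 627, 1057 and 835 CPM in wild type and 731, 2281, 477 and 1563 CPM in heterozygotes. H12 and H75 were 2.76 and 1.89 times the wild-type mean, H15 was 0.578 times it, and H11 lay inside the wild-type range. The gene lies at chr2:34771970-34777547 on the forward strand. Its log2 fold change was 0.61 ± 0.42 (edgeR adjusted p = 0.678), and it ran from 0.16 to 0.89 over the alternative settings. Hsp90b1, the ER's Hsp90 (GRP94), was at 677, 613, 832 and 627 CPM in wild type and 637, 1419, 484 and 1091 CPM in heterozygotes. The same libraries were outermost, and the log2 fold change was 0.40 ± 0.30 (adjusted p = 0.700).

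Creld2, an ER-resident protein of the secretory pathway, had the largest fold change of the 42 and lies at chr15:88819646-88826683 on the forward strand. It was at 38.4, 23.5, 60.0 and 42.6 CPM in wild type and at 40.9, 205, 16.5 and 156 CPM in heterozygotes. H12 was 4.98 times and H75 3.797 times the wild-type mean, while H15 was 0.402 times it, so the heterozygous libraries alone spanned a 12.4-fold range. The log2 fold change was 1.35 ± 0.65 (edgeR adjusted p = 0.563). Sdf2l1, a partner of BiP, was at 17.2, 15.01, 27.3 and 23.7 CPM in wild type and 19.6, 58.2, 10.2 and 61.6 CPM in heterozygotes. Here H75 was slightly above H12, H15 was again the lowest, and the log2 fold change was 0.85 ± 0.49 (adjusted p = 0.634).

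Manf, an ER-resident protein that cells can secrete, was at 81.9, 68.1, 107 and 93.3 CPM in wild type and 76.4, 192, 52.0 and 183 CPM in heterozygotes. Hyou1, an Hsp110-type partner of BiP, was at 189, 143, 249 and 204 CPM against 175, 470.4, 103 and 369 CPM. In both genes H11 lay inside the wild-type range, with H12 and H75 above it and H15 below, and the log2 fold changes were 0.52 ± 0.37 and 0.51 ± 0.40. Dnajb9 (ERdj4), a J-domain cofactor of BiP, was at 86.3, 57.6, 103 and 81.2 CPM in wild type and 57.6, 177, 47.1 and 150.1 CPM in heterozygotes. For this gene H11 stood at the lower end of the wild-type values, and the log2 fold change was 0.40 ± 0.40. Dnajb11 (ERdj3), another BiP cofactor, was at 66.0, 57.9, 87.9 and 71.9 CPM against 72.8, 137, 61.2 and 126 CPM. Its H15 value stayed within the wild-type range, the exception among the chaperones, and the log2 fold change was 0.49 ± 0.25 (edgeR adjusted p = 0.590).

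Calr encodes calreticulin, a lectin chaperone of glycoproteins, and was at 516, 521, 652 and 559.5 CPM in wild type and 621, 905, 479 and 833 CPM in heterozygotes. H12 and H75 exceeded every wild-type library, H11 did not, and the log2 fold change was 0.34 ± 0.19 (edgeR adjusted p = 0.623). The other members of this role, Canx (calnexin, the membrane-bound lectin partner) and Dnajc10 (an ER reductase), had log2 fold changes of 0.12 ± 0.10 and 0.04 ± 0.11. Their highest heterozygous library was at most 1.38 times the lowest.

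**Figure D3:**
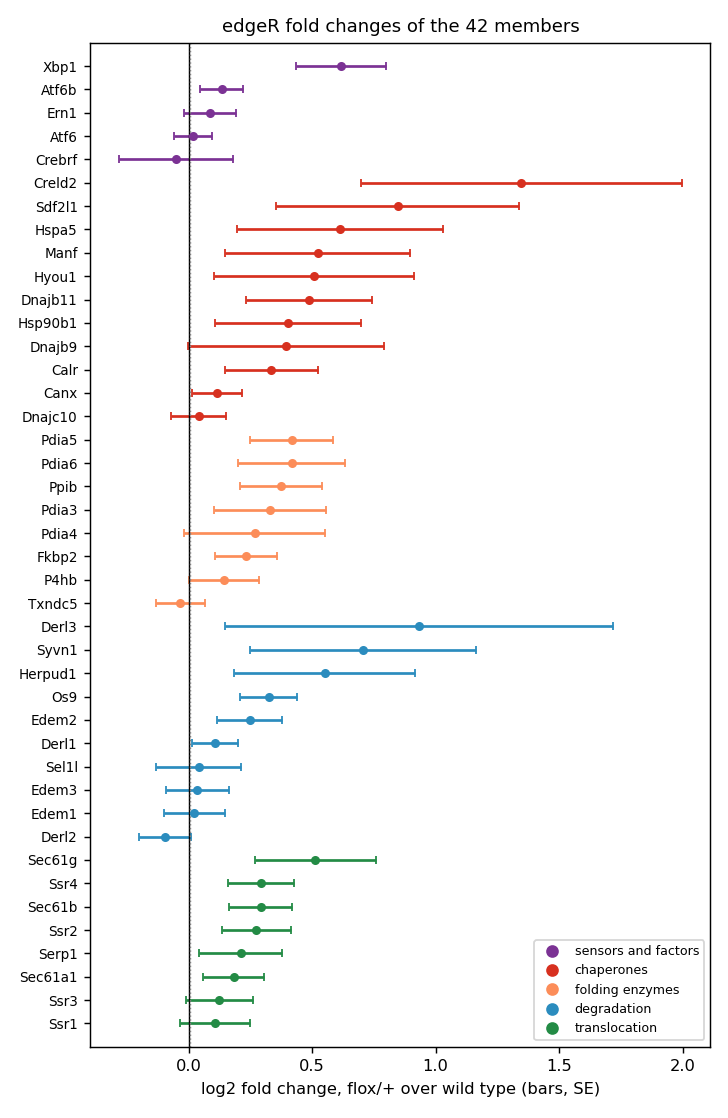
Log2 fold change (heterozygous against wild type) ± SE from edgeR for the 42 genes, grouped by role, with the median of all tested genes as a dotted line. Most points lie to the right of the line, and the bars are widest for Derl3, Creld2, Sdf2l1 and Syvn1.

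Of the 8 folding enzymes, 7 had a higher mean in heterozygotes (median log2 fold change 0.30), and Pdia5 and Ppib had an unadjusted p under 0.05. Protein disulfide isomerases form and exchange the disulfide bonds of new proteins, and cyclophilin B, encoded by Ppib, turns proline bonds. Pdia4 was at 202, 184, 249 and 226 CPM in wild type and 181, 377, 139.8 and 339 CPM in heterozygotes. Pdia6 was at 171, 193, 211 and 211 CPM against 215, 357, 163 and 315 CPM. In both, H12 and H75 exceeded every wild-type library and H15 was lowest of all 8 libraries; H11 lay slightly above wild type for Pdia6 and slightly below it for Pdia4. The log2 fold changes were 0.27 ± 0.28 for Pdia4 and 0.42 ± 0.22 for Pdia6, with edgeR adjusted p-values of 0.800 and 0.590.

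Pdia5, another disulfide isomerase, was at 30.5, 43.5, 37.8 and 41.9 CPM in wild type and 46.7, 60.9, 37.5 and 60.1 CPM in heterozygotes. H15 was inside the wild-type range, and the other heterozygous libraries were above it. The log2 fold change was 0.42 ± 0.17 (edgeR adjusted p = 0.493). Ppib was at 116, 145, 141 and 161 CPM in wild type and 164, 215, 133 and 216 CPM in heterozygotes, the same pattern with a log2 fold change of 0.37 ± 0.17 (adjusted p = 0.530). The remaining enzymes, Pdia3, P4hb, Txndc5 and Fkbp2, had log2 fold changes of -0.03 to 0.33. P4hb, the archetypal disulfide isomerase, had the highest level per kb of the 42 genes, at 366 ± 30.9 CPM per kb in wild type (SD, n = 4), followed by Hspa5 at 316 ± 68.1.

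In ER-associated degradation, misfolded proteins are recognized, moved out of the ER and ubiquitinated; 9 of 10 genes had a higher mean in heterozygotes (median log2 fold change 0.18), and Os9 alone had an unadjusted p under 0.05. Herpud1, a membrane protein of the degradation complex, was at 479, 377, 440.4 and 460.4 CPM in wild type and 386, 888, 269 and 1030.3 CPM in heterozygotes. The gene lies at chr8:94386438-94395377 on the forward strand. H75 was the highest and H15 the lowest library, and the log2 fold change was 0.55 ± 0.37 (edgeR adjusted p = 0.674). Syvn1, the ubiquitin ligase HRD1, was at 117, 87.7, 167 and 116 CPM in wild type and 112, 343, 62.1 and 279 CPM in heterozygotes. It lies at chr19:6046576-6053712 on the forward strand. Its heterozygous libraries spanned 5.52-fold, its wild-type libraries 1.91-fold, and the log2 fold change was 0.71 ± 0.46 (adjusted p = 0.664).

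Sel1l, the adaptor of the Syvn1 ligase, was at 184, 165, 209.9 and 151 CPM in wild type and 168, 231, 131 and 199 CPM in heterozygotes, and its log2 fold change was 0.04 ± 0.17. Edem1, a mannosidase-like factor that selects misfolded glycoproteins, was at 198, 169.7, 219 and 166 CPM against 169, 223, 181 and 193 CPM, and its log2 fold change was 0.02 ± 0.12. For both genes the groups overlapped, and only H12 exceeded the wild-type range. Edem2, of the same family, was at 37.9, 38.9, 42.4 and 38.4 CPM in wild type and 42.1, 53.0, 36.5 and 55.4 CPM in heterozygotes (log2 fold change 0.25 ± 0.13). Os9, the lectin that hands such glycoproteins on, was at 169, 171, 166 and 179.8 CPM in wild type and 194, 252, 177 and 234 CPM in heterozygotes. H15 alone lay in the wild-type range, which was narrow for Os9 (1.08-fold), and the log2 fold change was 0.32 ± 0.12 (edgeR adjusted p = 0.464).

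Derl3, a derlin of the degradation channel, was the weakest of the 42, with 6 to 111 estimated counts per library. It was at 0.545, 0.679, 2.31 and 1.70 CPM in wild type and 0.843, 3.39, 0.255 and 5.55 CPM in heterozygotes. Its libraries spanned 4.24-fold in wild type and 21.8-fold in heterozygotes, and the log2 fold change was 0.93 ± 0.78 (edgeR adjusted p = 0.741). The other members of this role, Edem3, Derl1 and Derl2, had log2 fold changes of -0.09 to 0.11.

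Translocation genes encode the channel through which new proteins enter the ER and the proteins beside it, and all 8 had a higher mean in heterozygotes (median log2 fold change 0.24), with Sec61b alone at an unadjusted p under 0.05. Sec61a1, the pore-forming subunit, was at 117, 107, 130.2 and 123 CPM in wild type and 124, 164, 112 and 141 CPM in heterozygotes (log2 fold change 0.18 ± 0.12). Sec61b, a small subunit, was at 40.9, 37.9, 44.0 and 41.6 CPM against 45.8, 56.6, 39.9 and 59.0 CPM. H15 alone lay within the wild-type range of Sec61b, and its log2 fold change was 0.29 ± 0.13 (edgeR adjusted p = 0.521). Sec61g, the other small subunit, was at 4.56, 4.68, 4.97 and 5.75 CPM in wild type and 6.47, 8.36, 3.99 and 9.71 CPM in heterozygotes. H15 lay below every wild-type library and the others above, with a log2 fold change of 0.51 ± 0.24 (adjusted p = 0.557).

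Ssr4, a subunit of the translocon-associated complex, was at 45.4, 52.4, 53.1 and 62.7 CPM in wild type and 57.3, 70.2, 56.7 and 77.6 CPM in heterozygotes. H11 and H15 lay inside the wild-type range, and the log2 fold change was 0.29 ± 0.13 (edgeR adjusted p = 0.540). Serp1, a partner of the translocon, was at 207, 193, 287 and 217 CPM in wild type and 225, 330.3, 212 and 277 CPM in heterozygotes. H12 alone exceeded the wild-type range, and the log2 fold change was 0.21 ± 0.17 (adjusted p = 0.726). The other members, Ssr1, Ssr2 and Ssr3, had log2 fold changes of 0.11 to 0.27.

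Within the wild-type libraries the 42 genes were also ordered alike. W76 was the highest wild-type library for 28 of the 42 genes (26.2% of all tested genes) and for 10 of 11 chaperones, and W33 was the lowest for 24 of the 42 (22.4%) and for 9 of 11 chaperones. Among heterozygous libraries H12 was the highest for 28 of the 42 (24.5% of all tested genes) and H15 the lowest for 34 (28.1%). The range was wider in heterozygotes than in wild type for 35 of the 42 genes (83.3%), against 64.6% of all tested genes. The median ratio of highest to lowest library was 1.33 in wild type and 1.59 in heterozygotes for the 42 genes, and 1.34 and 1.46 over the 14154 tested genes above 0 in every library. Genes with a wide range in wild type also had a wide range in heterozygotes (Spearman 0.69 over 42 genes, 0.61 over those 14154 genes; genes share libraries, so this is a description).

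**Figure D4:**
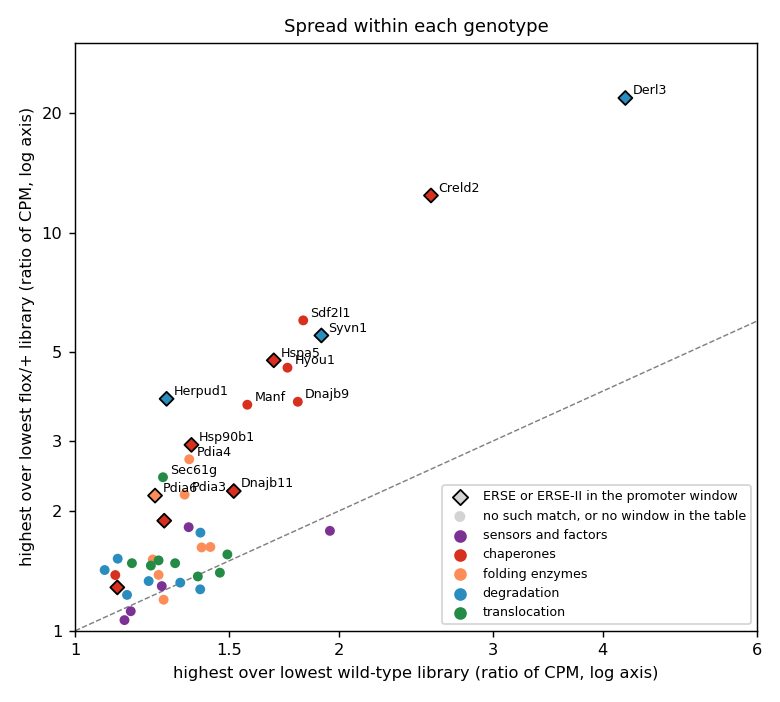
Ratio of the highest to the lowest library for each gene in wild type (horizontal, log axis) and in heterozygotes (vertical, log axis), with genes whose start window holds an ERSE or ERSE-II drawn as diamonds. Derl3 (4.24 and 21.8) and Creld2 (2.55 and 12.4) are the widest, and Canx is a diamond with a narrow range.

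By role, the median log2(CPM + 0.5) relative to the wild-type mean was 1.14 for the chaperones in H12, 0.90 in H75, -0.04 in H11 and -0.73 in H15. For the folding enzymes the medians were 0.65, 0.59, -0.0035 and -0.10 in the same order. Degradation and translocation genes had 0.41 and 0.46 in H12 and -0.10 and -0.08 in H15, and the sensors stayed at 0.02 to 0.16 in all 4 libraries. By these medians the chaperones differed most between heterozygous libraries, and the sensors least. The sensors' median does not show Xbp1, which was 2.12 times its wild-type mean in H12. It also leaves out the PERK gene Eif2ak3, which was listed with other signalling genes. Eif2ak3 was at 17.9 to 25.1 CPM in wild type and at 14.6, 34.6, 14.7 and 31.97 CPM in heterozygotes (log2 fold change 0.14, edgeR adjusted p = 0.908). Its H12 and H75 values lay above every wild-type library, and H11 and H15 below. Leaving out H12 lowered the chaperones' median log2 fold change from 0.49 to 0.16, leaving out H75 to 0.30, and leaving out H15 raised it to 0.66. Of the 42 genes, the log2 fold change of 26 was more than 1.5 times smaller or of the other sign without H12, of 10 without H75 and of 3 without H15. Without H12 it was 0.79 for Creld2, 0.16 for Hspa5, 0.10 for Hsp90b1, 0.14 for Hyou1, 0.049 for Dnajb9, 0.24 for Manf and 0.31 for Syvn1. Without H75 it was 0.50 for Sdf2l1, 0.23 for Herpud1 and 0.21 for Derl3.

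**Figure D5:**
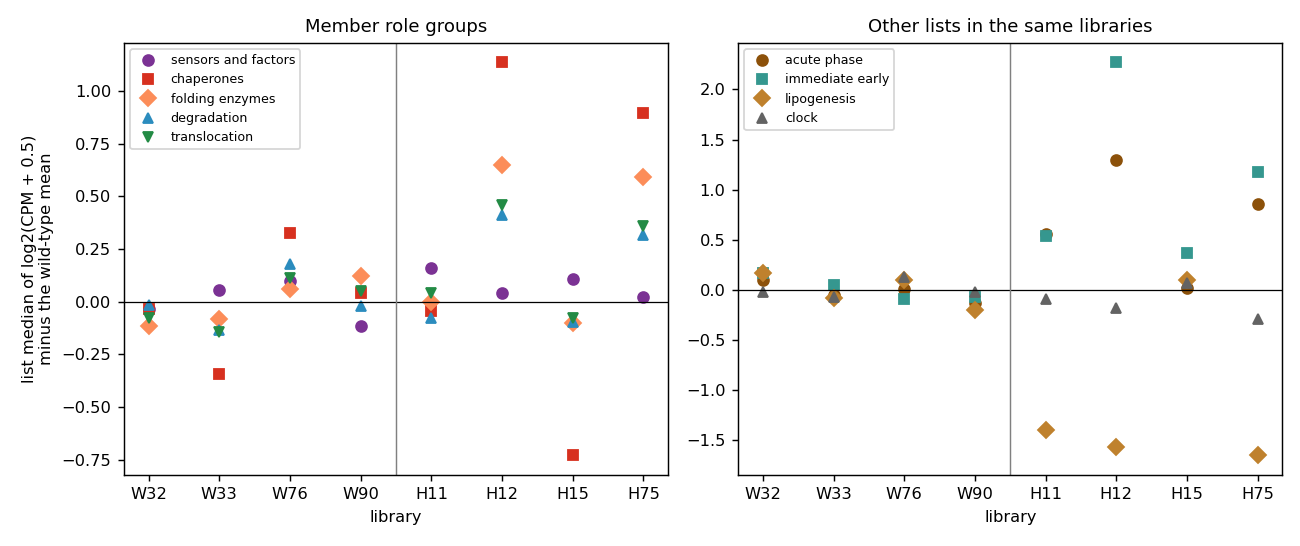
Median log2(CPM + 0.5) relative to the wild-type mean in each of the 8 libraries, for the 5 roles (left) and for acute phase, immediate early, lipogenesis and clock genes (right; the panels have different vertical axes). Among heterozygous libraries the chaperones are highest in H12 and lowest in H15, and lipogenesis genes are low in H11, H12 and H75 but not in H15.

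Other features of the libraries also set H12 and H75 apart, and their part in these values was not tested. The chaperone medians relative to wild type were -0.04, 1.14, -0.73 and 0.90 in H11, H12, H15 and H75. Among heterozygous libraries, the chaperone, acute phase and immediate early medians were all highest in H12 and lowest in H15. The lipogenesis median was highest in H15, and in H11 it was nearly as low as in H12. Acute phase genes had medians of 0.55, 1.29, 0.01 and 0.85 relative to wild type in H11, H12, H15 and H75, and immediate early genes had medians of 0.54, 2.27, 0.37 and 1.17. Lipogenesis genes were at -1.40, -1.57, 0.10 and -1.65, and clock genes at -0.09, -0.18, 0.06 and -0.29. H12 and H75 also had the lowest TMM factors (0.909 and 0.900, against 0.9997 to 1.06 in the other libraries) and the lowest mitochondrial shares of counts (5.38 and 5.26%, against 5.98 to 7.34%). Neutrophil markers summed to 7.63 CPM in H12, 6.75 in H75, 4.94 in H11 and 1.61 in H15, and to at most 2.55 CPM in any wild-type library. These are low levels: 3 of the 9 markers passed the count filter. Most of each sum came from Csf3r (0.605 to 3.35 CPM) and S100a9 (0.0850 to 2.47 CPM). In whole tissue, fewer cells of a type and less RNA per cell cannot be told apart.

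The list of B and plasma cells, the latter with a large ER, summed to 176 to 202 CPM in wild type and 143 to 190 CPM in heterozygotes, nearly all from Sdc1 (140 to 199 CPM), which hepatocytes also express. Of its defining markers, Jchain was at 0.925 to 2.25 CPM, Mzb1 at no more than 0.227 CPM, and Tnfrsf17 at 0 in 7 of 8 libraries. Of 7 markers of the exocrine pancreas, another organ rich in ER, 6 were at 0 in every library and Cela1 was at 5.55 to 10.97 CPM in wild type and at 17.0, 17.1, 8.07 and 16.0 CPM in heterozygotes. Kupffer cell markers summed to 122 to 284 CPM in wild type and 125 to 276 CPM in heterozygotes, and sinusoidal endothelial markers to 217 to 300 and 244 to 370 CPM. Stellate cell markers summed to 268 to 338 CPM in wild type and to 383, 240.0, 354 and 154 CPM in H11, H12, H15 and H75, so that H12 and H75 lay below every wild-type library and H11 and H15 above. The part of these cells in the results was not tested. Cholangiocyte markers summed to 34.5 to 88.0 and 41.2 to 102 CPM, T and NK cell markers to 2.87 to 4.68 and 2.55 to 7.59 CPM, erythroid markers to 270 to 412 and 302 to 460 CPM, and adipocyte markers to 0.151 to 0.501 and 0 to 0.0850 CPM.

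Leaving out H15 changed calls. H15 lay below every wild-type library for 19 of the 42 genes, and with DESeq2 no other library was left out. Calls made without H15 are therefore no separate support for a difference. With DESeq2 and without H15, 10 of the 42 genes (23.8%) had an adjusted p under 0.05, all higher in heterozygotes. Of all genes tested that way, 2.58% were called higher and 5.02% in either direction. They were Xbp1, Dnajb11, Calr, Pdia5, Pdia6, Ppib, Herpud1, Os9, Sec61b and Sec61g, with adjusted p-values of 0.00235 to 0.0493. Hspa5 (adjusted p = 0.232) and Creld2 (0.0849) were not among them, even though their fold changes were larger. edgeR without H15 called 0 of the 42, against 1.74% of all genes tested that way in either direction, and its adjusted p for Xbp1 was 0.0733.

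Of 113 genes of the same pathways outside the 42, edgeR called 0, limma-voom 0 and DESeq2 1. At an unadjusted p under 0.05 there were 11 with edgeR, 9 with limma-voom and 10 with DESeq2, against 9.34, 9.4 and 9.6% of all genes. DESeq2 without H15 called 6 of the 113, against 5.02% of all genes tested that way, with 23 at an unadjusted p under 0.05. That fit gave an adjusted p to 15219 genes, and 2383 genes had an unadjusted p under 0.05. Of 18 other genes of unfolded protein response signalling, 16 had a higher mean in heterozygotes (median log2 fold change 0.22). Ppp1r15a, the phosphatase subunit that restores translation, was at 9.09, 7.61, 6.78 and 9.002 CPM in wild type and 9.56, 14.1, 12.4 and 15.4 CPM in heterozygotes (log2 fold change 0.66, edgeR adjusted p = 0.354), and it was the gene that DESeq2 called. All 4 heterozygous values exceeded all wild-type values. Creb3l3, a factor of the CREB3 family made mainly in liver and gut, had a log2 fold change of 0.42 (edgeR adjusted p = 0.479) and Creb3l1 one of 0.65 (0.525). Creb3l1 was weakly measured, at 0.540 to 1.40 CPM over all libraries, where Creb3l3 was at 180 to 322 CPM. Ddit3 (CHOP), which was named after its values were seen, was measured by the identifier that holds nearly all its counts (a second one with the same symbol had at most 0.86 counts in a library). It was at 7.02, 6.25, 8.48 and 10.9 CPM in wild type and 4.10, 28.9, 5.27 and 16.0 CPM in heterozygotes. H12 and H75 were high and H11 and H15 low (log2 fold change 0.74, edgeR adjusted p = 0.697).

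Of 23 further genes of glycan trimming and disulfide formation, 17 had a higher mean (median log2 fold change 0.16), with Qsox1 at 0.43, Prdx4 at 0.34 and Fkbp14 at -0.69. Of 21 further degradation genes 13 were higher (median 0.04), with Aup1 at 0.22, Selenok at 0.28 and Erlin1 at -0.18, and of 18 genes of the translocon, signal peptidase and signal recognition particle 15 were higher (median 0.11), with Srp14 at 0.23. Of 11 oligosaccharyltransferase subunits 8 were higher (median 0.12), with Rpn2 at 0.25 and Krtcap2 at 0.36. Of 21 COPII and ER exit genes 11 were higher (median 0.00), with Tmed9 at 0.30 and Kdelr2 at 0.22. The genes named in this paragraph are among the 3 of lowest p in their list. Their edgeR adjusted p-values ran from 0.386 to 0.644.

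For 12 of the 42 genes, exons overlap a gene on the opposite strand, and reads of both cannot be told apart unless the counting used strand, which no label states; these are Hsp90b1, Dnajb9, Manf, Pdia3, Pdia6, Txndc5, Ppib, Syvn1, Derl2, Sec61a1, Ssr2 and Serp1. For 33 of the 42 all estimated counts were whole numbers, and for the other 9 some were fractional.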

How the data were processed

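Livers of 4 wild-type and 4 heterozygous mice were analysed. Per the labels' protocols, RNA was extracted with Trizol, treated with DNaseI and depleted of ribosomal RNA with a Ribo-zero kit. Build mm10, fastp 0.19.5, Bowtie2 2.2.9, GATK 3.8 and SAMtools 1.9 are named in the submitters' processing notes, without roles. The sources used here do not give the counting program, annotation release or strand setting. The authors deposited estimated counts per gene, not normalized, of which 90.0% are whole, including 541 unannotated loci with 0.431 to 0.977% of a library's counts. Per the file headers, the authors' deposited table of comparisons gives a fold (ratio), a log2 fold change, a p-value and an adjusted p-value per gene.

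Estimated counts were rounded, filtered with filterByExpr and scaled by TMM. They were tested with the quasi-likelihood test of edgeR 4.0.16 (R 4.3.3), with no covariates and Benjamini-Hochberg adjustment over 14261 genes. A standard error is the log2 fold change divided by the square root of F. DESeq2 1.42.0 and limma-voom 3.58.1, other scalings and filters, and leaving out each library with edgeR were alternatives. With DESeq2, H15 alone was left out. The procedure was tested on simulated data. Columns carry W or H and no replicate number, so each is a replicate of its group. Nothing says that the mice were from separate litters, so p-values measure only the spread between these samples. Pairs of libraries differed by chi-square of 20.2 to 163 per gene, so none was counted as a duplicate. Library totals were 22178028 to 28564400, and Derl3, with 6 to 111 counts per library, had the least precise values.

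The 42 members, the lists and the rules were chosen with earlier results of these data known. Genes given library by library are the 5 sensors, 17 well-known targets, and the 3 genes of lowest p in each other role. Gene positions are from the GENCODE annotation of GRCm38, and windows around gene starts from RefSeq GRCm38.p6.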

Additional observations from a re-analysis of the deposited data

Results flagged for a closer look

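Of 86 groups of 4 libraries checked for a library far from the others, 1 was picked out, the wild-type values of Canx, which encodes the lectin chaperone calnexin. W76 was at 316 CPM and the other wild-type libraries at 286, 287 and 283 CPM. The gap from W76 to its neighbour was 0.871 of the whole range. Chance picks out about 1 in 20 groups.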

How the results depend on the processing

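No paired analysis was possible because the columns of the count table carry no replicate numbers of the labels. Over 18 alternatives, 723 of 756 values of the 42 genes kept their direction and side of the threshold. The 0 genes past edgeR's threshold became 151 with DESeq2, 764 with DESeq2 without H15, 18 with no filter, 1 with the other quasi-likelihood method and 1 at an adjusted p under 0.1, and 0 to 252 when 1 library was left out (252 without H15, 2 without W32). Among the 42 genes, 10 passed with DESeq2 without H15 and 0 otherwise. Eif2s1 kept its direction, and passed the threshold with DESeq2 (log2 fold change -0.44, adjusted p = 0.0208) and with DESeq2 without H15 (-0.40, adjusted p = 0.0369).

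The sensors' median log2 fold change was 0.09, and 0.013 with library totals alone, the 1 of 55 role values that moved by more than the SD of that role's medians over the heterozygous libraries (0.063 for the sensors, 0.862 for the chaperones). With library totals alone, the log2 fold changes turned to -0.068 for Atf6, -0.047 for Dnajc10, -0.067 for Edem1, -0.057 for Edem3 and -0.062 for Sel1l, and with DESeq2 without H15 that of Crebrf turned to 0.056. When 1 library was left out, values ran from -0.020 to 0.044 for Atf6, -0.25 to 0.049 for Crebrf, -0.045 to 0.11 for Dnajc10, -0.079 to 0.031 for Txndc5, -0.057 to 0.11 for Edem1, -0.043 to 0.11 for Edem3 and -0.094 to 0.17 for Sel1l. The cause was not tested. A count of the carboxy-terminal retrieval signal of the proteins was not run, as protein sequences were not used here.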
